A study of Homo sapiens with 9 samples.

Results

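The 31 genes described here encode the enzymes and modifiers of the SUMO pathway and the main residents of PML bodies. They were taken by symbol from a named list, and all 31 were found among the 57820 gene identifiers of the count table. By role they are 2 SUMO modifiers, 2 subunits of the activating enzyme, 10 SUMO ligases, 10 proteases, 1 SUMO-targeted ubiquitin ligase, 4 PML body genes and 2 others, RANGAP1 and USP7.

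SUMO is a small protein that is joined to lysines of other proteins, much like ubiquitin. An activating enzyme (E1), a conjugating enzyme (E2) and ligases (E3) attach it, and dedicated proteases mature it and take it off again. SUMO2 and SUMO3 form chains, and SUMO-targeted ubiquitin ligases such as RNF4 and RNF111 recognise these chains and add ubiquitin. PML bodies are nuclear assemblies built on the PML protein, which is itself heavily modified by SUMO and is a well-known substrate of RNF4.

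Transcripts were measured in xenografts of A375, a BRAF-mutant human melanoma cell line, grown in nude mice. A construct switched on by doxycycline (Dox) gave the cells RNF4 or a RING mutant of it that lacks ligase activity. There were 3 groups: RNF4 without Dox, RNF4 plus Dox, and RING mutant plus Dox. Each had 3 libraries, and each library held RNA of 2 pooled tumours taken at day 30. Dox was in the drinking water from day 3 in the 2 groups that received it. The design text calls GFP tumours the control, whereas the titles give RNF4 without Dox, and the titles were followed. All groups rest on 1 cell line in mice that lack T cells, the age and sex of the mice are not given in the sources used here, and Dox was never given to tumours lacking a construct. In a comparison of Dox with no Dox, what Dox does and what the induced protein does thus cannot be told apart, whereas Dox is the same in RNF4 and RING mutant tumours that both received it. Cells with the RNF4 construct and cells with the mutant construct may differ in other ways, which cannot be told apart from ligase activity. The libraries are named by their column numbers: T1, T4 and T12 (RNF4 without Dox), T2, T5 and T13 (RNF4 with Dox), and T3, T6 and T14 (RING mutant with Dox). Nothing in the labels says that the pools of a group came from separate cohorts of mice, so the p-values measure only the spread between these libraries.

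Total counts ran from 16416426 to 28934692 per library. RNF4 itself stood at 33.4, 52.0 and 43.2 CPM (library-scaled normalised read counts) without Dox and at 380, 413 and 454 CPM with RNF4 plus Dox. In the RING mutant group the libraries disagreed, with 47.0 CPM in T3, 559 CPM in T6 and 63.5 CPM in T14. Statements on that group therefore concern its label. T1 and T2 stood apart from the other 7 libraries: protein-coding ribosomal protein genes took 26.0% and 16.1% of their counts, against 6.515% to 9.73% elsewhere, and the first principal component, with 39.3% of the variance, separated them. T1 belongs to RNF4 without Dox and T2 to RNF4 with Dox, so results are also given without these libraries. Such fits keep only T4 and T12 of RNF4 without Dox and T5 and T13 of RNF4 with Dox. T1 and T2 were set apart by values of these same data, so SEs and intervals without them can understate the spread. Of the melanocyte lineage genes, SOX10 was at 39.04 to 80.9 CPM, MITF at 10.6 to 22.1 CPM and PAX3 at 10.2 to 14.4 CPM, whereas TYR had no counts in 6 libraries and MLANA stayed at 0.738 to 1.88 CPM. T14 stood apart in pigment genes, with PMEL at 10.2 CPM, TYRP1 at 8.13 CPM, DCT at 6.93 CPM and TYR at 1.48 CPM, where the highest values elsewhere were 2.04, 0.909, 0.593 and 0.165 CPM.

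The modifiers SUMO2 and SUMO3 are near-identical proteins. A stretch of their coding sequences is printed because short reads from this stretch tell the 2 genes apart only by scattered base differences. The stretch covers coding bases 58 to 207 of SUMO2 and 55 to 204 of SUMO3, and the same bases of SUMO2P1, 1 of the processed copies of SUMO2. Sequences are 5′ to 3′ from the GENCODE 29 transcripts (GRCh38). Capitals mark the bases that differ between SUMO2 and SUMO3, and in SUMO2P1 those that differ from SUMO2.
SUMO2: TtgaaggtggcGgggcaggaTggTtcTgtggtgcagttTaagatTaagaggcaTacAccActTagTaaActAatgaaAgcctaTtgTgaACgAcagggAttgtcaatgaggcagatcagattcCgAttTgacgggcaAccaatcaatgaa
SUMO3: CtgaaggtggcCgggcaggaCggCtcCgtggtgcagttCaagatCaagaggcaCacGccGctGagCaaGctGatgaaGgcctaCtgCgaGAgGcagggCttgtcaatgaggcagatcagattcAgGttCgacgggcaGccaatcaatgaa
SUMO2P1: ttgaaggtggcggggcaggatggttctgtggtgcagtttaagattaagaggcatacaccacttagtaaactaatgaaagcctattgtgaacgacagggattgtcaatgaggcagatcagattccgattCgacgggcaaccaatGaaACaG
SUMO2 and SUMO3 differed at 25 of 150 bases (83.3% identical), the longest identical run was 24 bases, and any 50 bases, the read length used, held 4 to 14 differences. SUMO2P1 differed from SUMO2 at 5 bases (96.7% identical). Of the 50-base windows of the longest SUMO2 transcript, 8.56% also occurred in transcripts of other genes, 5.28% in SUMO2P1, and for SUMO3 the share was 0. The 18 processed copies of SUMO2 together had at most 24 counts in a library, at most 1.55% of the SUMO2 count there.

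SUMO2 (ENSG00000188612.7; chromosome 17, 75165586 to 75182983, minus strand, GRCh38) gives a modifier that forms chains. It stood at 272, 106 and 81.3 CPM in RNF4 without Dox (T1, T4, T12), at 214, 104 and 113 CPM in RNF4 with Dox (T2, T5, T13) and at 129, 118 and 88.1 CPM in RING mutant with Dox (T3, T6, T14). T1 and T2 were far above every other library, and the 3 groups overlapped. SUMO3 (ENSG00000184900.11; chromosome 21, 44805617 to 44818779, minus strand) stood at 144, 109 and 78.2 CPM without Dox, at 136, 93.4 and 86.9 CPM with RNF4 plus Dox, and at 115, 104 and 80.3 CPM with the RING mutant. Its order of libraries was like that of SUMO2 with a narrower spread, and the groups overlapped again. The fitted log2 change between RNF4 with and without Dox was -0.097 ± 0.45 (SE) for SUMO2 and -0.066 ± 0.28 for SUMO3. Without T1 and T2 these became 0.20 ± 0.22 and -0.056 ± 0.23.

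SAE1 and UBA2 are the 2 subunits of the SUMO activating enzyme and work as a heterodimer. SAE1 (ENSG00000142230.7; chromosome 19, 47113274 to 47210636, plus strand) stood at 94.6, 214 and 148 CPM in RNF4 without Dox, at 140, 196 and 185 CPM in RNF4 with Dox and at 206, 162 and 152 CPM in RING mutant with Dox. UBA2 (ENSG00000126261.8; chromosome 19, 34428352 to 34471251, plus strand) stood at 412, 231 and 176 CPM, at 417, 239 and 224 CPM, and at 303, 270 and 189 CPM in the same order. The subunits thus stood on opposite sides in T1 and T2, with SAE1 below and UBA2 above the other 7 libraries, and the groups overlapped for both. Their fitted log2 changes with Dox in the RNF4 tumours were 0.19 ± 0.30 for SAE1 and 0.10 ± 0.37 for UBA2 (SE). They were 0.075 ± 0.23 and 0.19 ± 0.25 without T1 and T2.

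The PML body genes had the same division. PML (ENSG00000140464.15; chromosome 15, 73994673 to 74047812, plus strand) is the scaffold of the body and stood at 62.6, 109 and 112 CPM in RNF4 without Dox, at 72.4, 121 and 102 CPM in RNF4 with Dox and at 120, 108 and 119 CPM in RING mutant with Dox. SP100 (ENSG00000067066.12; chromosome 2, 230415942 to 230544090, plus strand), a resident with roles in antiviral defence, stood at 139, 70.0 and 65.3 CPM, at 116, 79.7 and 66.0 CPM, and at 91.8, 77.9 and 60.9 CPM. PML was lowest and SP100 highest in T1 and T2, and in the other 7 libraries PML kept within 102 and 121 CPM.

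DAXX (ENSG00000204209.6; chromosome 6, 33318558 to 33323016, minus strand), a histone H3.3 chaperone, stood at 12.7, 18.2 and 12.8 CPM without Dox, at 12.6, 16.3 and 15.5 CPM with RNF4 plus Dox, and at 14.9, 14.7 and 13.3 CPM with the RING mutant. ATRX (ENSG00000085224.16; chromosome X, 77504878 to 77786233, minus strand), the remodeller that works with DAXX, stood at 13.5, 27.9 and 26.4 CPM, at 14.5, 32.5 and 28.3 CPM, and at 26.8, 22.04 and 25.9 CPM. DAXX ranged 1.45-fold over the 9 libraries with overlapping groups. ATRX in T1 and T2, by contrast, was at 0.511 and 0.546 of the geometric mean of the other 7, with 0.5 CPM added throughout. The fitted log2 changes between RNF4 with and without Dox were 0.061 ± 0.27 (SE) for PML, -0.064 ± 0.33 for SP100, 0.022 ± 0.22 for DAXX and 0.15 ± 0.34 for ATRX. In the same order, the values without T1 and T2 were 0.017 ± 0.15, 0.11 ± 0.21, 0.038 ± 0.23 and 0.16 ± 0.17, so that of SP100 had the opposite sign. PML and SP100 are both known as interferon-responsive genes, and the summed level of 12 interferon-induced genes lay between 139 and 203 CPM in the 9 libraries, with all 3 groups overlapping.

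**Figure D1:**
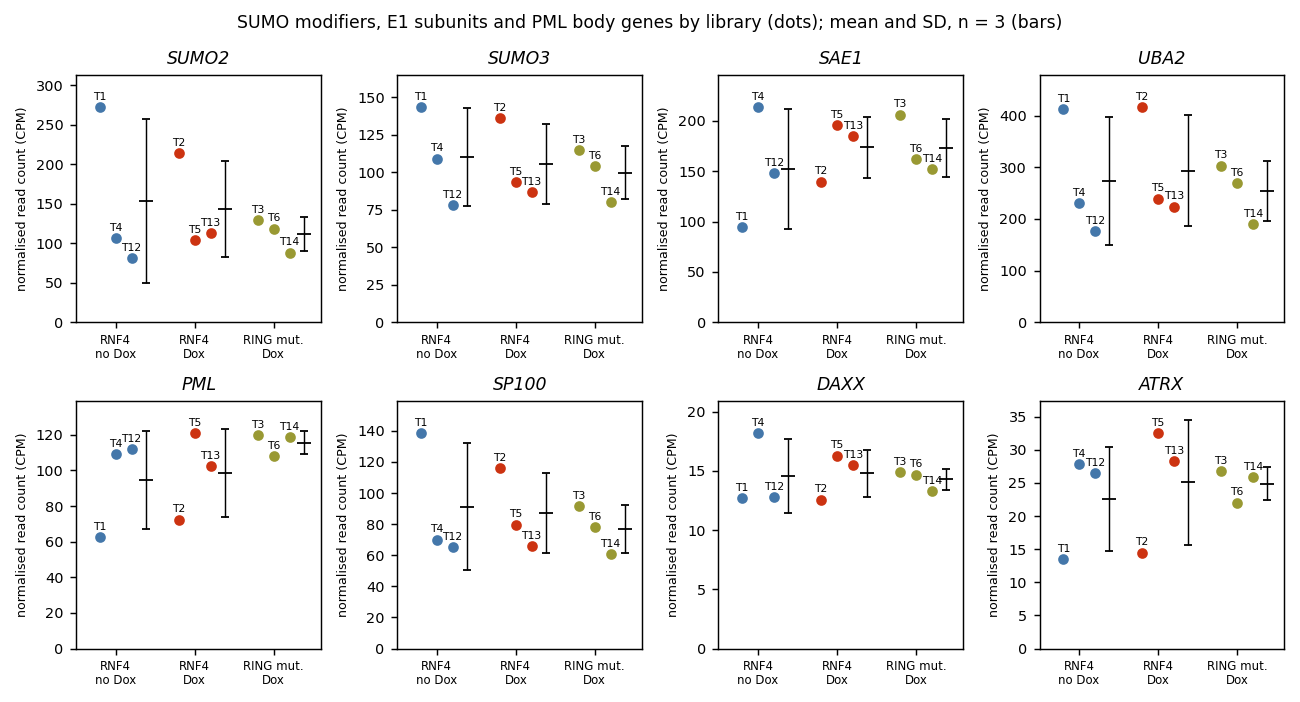
Normalised read counts (CPM, y axis from 0) of SUMO2, SUMO3, SAE1, UBA2, PML, SP100, DAXX and ATRX in the 9 libraries, by group on the x axis. Dots are libraries of 2 pooled tumours and the bars beside them are the mean and SD of 3 libraries. T1 and T2 are the highest for SUMO2, UBA2 and SP100 and the lowest for SAE1, PML and ATRX, while the remaining libraries of the 3 groups lie together.

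Comparing the RNF4 tumours with and without Dox asks which of these transcripts differ when the ligase is induced. None of the 31 genes passed the test, and their fitted log2 changes lay between -0.36 (NSMCE2) and 0.20 (PIAS1), 17 above and 14 below 0. All 31 passed the filter on low counts. edgeR's quasi-likelihood test called 0 of 31 at an adjusted p under 0.05, where the share over all 18618 genes tested was 0%, with a smallest adjusted p among the members of 0.99998. DESeq2 also called 0 members. At an unadjusted p under 0.05 there were 0 members and 111 genes in all, 0.596% of those tested, and the smallest p of a member was 0.37. With so small a share over all genes, 0 of 31 does not set the members apart. The median log2 change was 0.016 for the members and -0.026 for all genes, and the median size of the change was 0.079 against 0.13.

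Among the members with the smallest p in this comparison, PIAS1, a ligase of the PIAS family, stood at 18.6, 31.3 and 26.1 CPM without Dox, at 29.4, 30.9 and 27.0 CPM with RNF4 plus Dox, and at 31.05, 29.6 and 27.0 CPM with the RING mutant. Only the T1 library was low, and the groups overlapped. Its log2 change of 0.20 ± 0.21 (SE) became 0.013 ± 0.18 without T1 and T2. NSMCE2, the SUMO ligase of the SMC5/6 complex, stood at 158, 29.04 and 29.6 CPM, at 102, 34.0 and 31.8 CPM, and at 47.5, 45.4 and 28.1 CPM. T1 and T2 were 4.54 and 2.95 times the geometric mean of the other 7 libraries, which made NSMCE2 the most variable of the 31 genes. Its log2 change was -0.36 ± 0.68 with all libraries and 0.17 ± 0.25 without T1 and T2. TOPORS, a ligase for both SUMO and ubiquitin, stood at 49.7, 48.2 and 40.4 CPM without Dox, at 48.4, 42.3 and 39.5 CPM with RNF4 plus Dox and at 51.1, 44.8 and 40.1 CPM with the RING mutant. The ranges of its groups nearly coincided.

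The active ligase was then compared with its inactive form, both under Dox, with the limit that T3 and T14 had RNF4 near its level without Dox. edgeR called 0 of 31 members, with 0% of the 18618 genes called as well. Fitted log2 changes ran from -0.23 (PML) to 0.47 (NSMCE2), 17 above and 14 below 0, with a median of 0.0047 against 0.032 for all genes. No member had an unadjusted p under 0.05, against 251 of all genes, 1.35% of those tested. PIAS2, another ligase of the family, had the smallest, 0.18. It stood at 53.5, 48.1 and 50.0 CPM without Dox, at 62.9, 53.1 and 49.5 CPM with RNF4 plus Dox, and at 45.03, 54.9 and 36.4 CPM with the RING mutant, so T6 lay inside the range of the RNF4 libraries. The log2 change of PIAS2 was 0.28 ± 0.20 (SE), and 0.16 ± 0.19 without T1 and T2.

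SENP7, a protease that trims SUMO2 and SUMO3 chains, came next in the same direction. It stood at 38.9, 15.7 and 18.5 CPM without Dox, at 36.3, 14.9 and 17.2 CPM with RNF4 plus Dox, and at 14.6, 19.5 and 16.4 CPM with the RING mutant. Its log2 change of 0.44 ± 0.41 (SE) became -0.088 ± 0.20 without T1 and T2, since the high value with RNF4 and Dox came from T2 alone. SENP5, a nucleolar and mitochondrial SUMO protease, stood at 65.1, 49.8 and 53.2 CPM, at 65.5, 52.8 and 48.9 CPM, and at 60.4, 61.4 and 56.8 CPM. Its log2 change was -0.096 ± 0.18, and -0.24 ± 0.13 without T1 and T2.

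When T1 and T2 were left out, 16 of the 31 log2 changes of this comparison had the opposite sign. ZNF451, a ligase that builds SUMO2 and SUMO3 chains, then had the smallest p, with a log2 change of -0.39 ± 0.16 (SE), an unadjusted edgeR p of 0.035 and an adjusted p of 0.99995. It stood at 57.4, 39.7 and 44.4 CPM without Dox, at 63.6, 38.3 and 39.2 CPM with RNF4 plus Dox, and at 53.2, 53.0 and 43.8 CPM with the RING mutant. With T2 included the ranges of the last 2 groups overlapped, and the log2 change was -0.088 ± 0.24.

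The third comparison, that of the RING mutant under Dox with uninduced RNF4, shares a group with each of the others, so its values are not independent of theirs. edgeR called 0 of 31 members with 0% of all genes called, at log2 changes from -0.84 (NSMCE2) to 0.29 (PML), 16 above and 15 below 0. The median was 0.041 for the members and -0.039 for all genes. 0 members and 325 genes in all, 1.75% of those tested, had an unadjusted p under 0.05. On the lower side the smallest p belonged to SENP7 (log2 change -0.53 ± 0.41 SE), NSMCE2 (-0.84 ± 0.69) and SUMO2 (-0.46 ± 0.45), each highest in T1. Without T1 and T2 the values were -0.0039 ± 0.20, 0.48 ± 0.23 and 0.27 ± 0.20, and 17 of the 31 members changed sign. On the higher side stood PML (0.29 ± 0.27), PIAS1 (0.20 ± 0.21) and MUL1 (0.12 ± 0.18), a ligase anchored in mitochondria. These were 0.082 ± 0.14, 0.042 ± 0.16 and 0.029 ± 0.14 when T1 and T2 were left out. MUL1 was at 40.1, 53.5 and 48.45 CPM in uninduced RNF4 tumours, 43.4, 53.2 and 53.5 CPM with RNF4 plus Dox and 54.3, 51.7 and 48.2 CPM with the RING mutant. Only T1 and T2 were lower than the rest.

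Groups did not overlap for 0, 0 and 1 of the 31 members in the 3 comparisons, where this held for 2.32%, 4.98% and 3.78% of all genes tested. The 1 gene was RNF111, the other SUMO-targeted ubiquitin ligase, also known as Arkadia. It stood at 43.4, 44.3 and 43.3 CPM without Dox, at 40.7, 45.2 and 43.3 CPM with RNF4 plus Dox, and at 45.6, 44.8 and 44.4 CPM with the RING mutant. All 9 values lay within 1.12-fold of each other, and its log2 change between RING mutant and RNF4 without Dox was 0.041 ± 0.15 (SE).

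A p above the threshold does not show equality, so the intervals of the changes are given. The 95% interval of the log2 change lay within 1 unit, a doubling or halving, for 27, 26 and 27 of the 31 members in the 3 comparisons. The exceptions were SUMO2, NSMCE2, SENP7 and SENP8 in the comparison of Dox with no Dox and in that of the RING mutant with no Dox, and these genes with UBA2 in that of RNF4 with the RING mutant. The widest interval was that of NSMCE2, -2.38 to 0.70 between RING mutant and RNF4 without Dox. Without T1 and T2 the counts were 30, 30 and 29 of 31, with SENP8 outside in each comparison and NSMCE2 outside in the last. Of the 31 members, 0 had an adjusted p under 0.05 in the authors' deposited table in any comparison. Their log2 fold changes in the authors' deposited table ran from -0.86 to 0.48, where the authors called 0.0187%, 0.05% and 0.119% of 16002 genes.

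**Figure D2:**
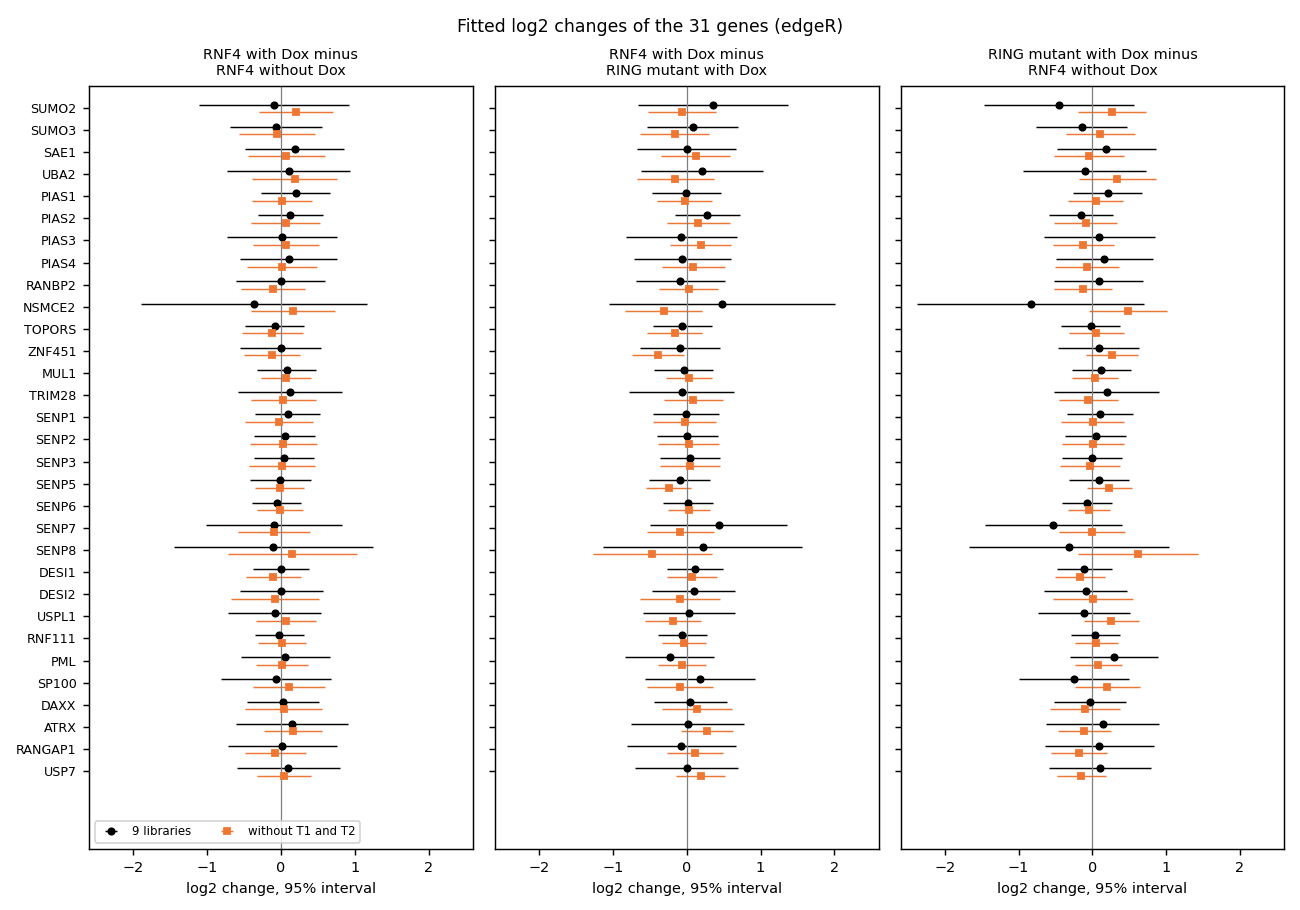
Fitted log2 change (x axis) of each of the 31 genes (y axis, ordered by role) in the 3 comparisons, with 95% intervals, for all 9 libraries (black circles) and without T1 and T2 (orange squares). With all 9 libraries every interval includes 0, and the widest belong to NSMCE2 and SENP8; without T1 and T2 most intervals are narrower, and that of ZNF451 between RNF4 and RING mutant lies below 0.

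Ligases, proteases and the remaining genes can be read by role in the same fits. Of the 10 ligases, 6, 2 and 7 had log2 changes above 0 in the comparisons of RNF4 with Dox against no Dox, RNF4 against RING mutant, and RING mutant against no Dox, and without T1 and T2 the counts were 7, 6 and 5. RANBP2, a ligase of the nuclear pore, kept between -0.089 and 0.083 on the log2 scale and TRIM28, a corepressor with SUMO ligase activity, between -0.068 and 0.19. Of the 10 proteases, 4, 8 and 3 were above 0, and without T1 and T2 they were 4, 4 and 6. SENP6, which like SENP7 trims chains, stood at 77.6, 77.5 and 73.6 CPM without Dox, at 70.0, 75.8 and 73.5 CPM with RNF4 plus Dox and at 73.6, 70.3 and 73.8 CPM with the RING mutant, so its whole range was 1.11-fold. The desumoylating isopeptidases DESI1 and DESI2, the Cajal body protease USPL1, SENP1, SENP2 and SENP3 had log2 changes between -0.12 and 0.11. RANGAP1, the nuclear transport factor known as a major SUMO substrate, had 0.016, -0.076 and 0.092, and USP7, a deubiquitinase that acts on SUMO-modified proteins, had 0.10, -0.00070 and 0.10. Without T1 and T2 the values were -0.076, 0.11 and -0.18 for RANGAP1 and 0.039, 0.19 and -0.15 for USP7.

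The widest differences in these genes were those of T1 and T2 from the other libraries. Of the 31 members, 10 were above the other 7 libraries in both T1 and T2 and 11 were below them in both, against 23% and 19.2% of all genes tested. The deviations of T1 and T2 from the mean of the other 7 had the same sign for 28 members. Their median size on the log2 scale was 0.72 in T1 and 0.48 in T2, against 0.50 and 0.39 over all genes tested. In T1 NSMCE2 was 4.54-fold, SENP8 2.81-fold, SUMO2 2.601-fold, SENP7 2.31-fold, SP100 1.91-fold and UBA2 1.79-fold the geometric mean of the other 7 libraries. On the low side, RANGAP1 was at 0.495, TRIM28 at 0.509, ATRX at 0.511, USP7 at 0.515, SAE1 at 0.531, PIAS4 at 0.539, PML at 0.557 and PIAS3 at 0.580 of that mean. The same genes lay on the same sides in T2, with NSMCE2 at 2.95-fold and PIAS3 at 0.523.

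**Figure D3:**
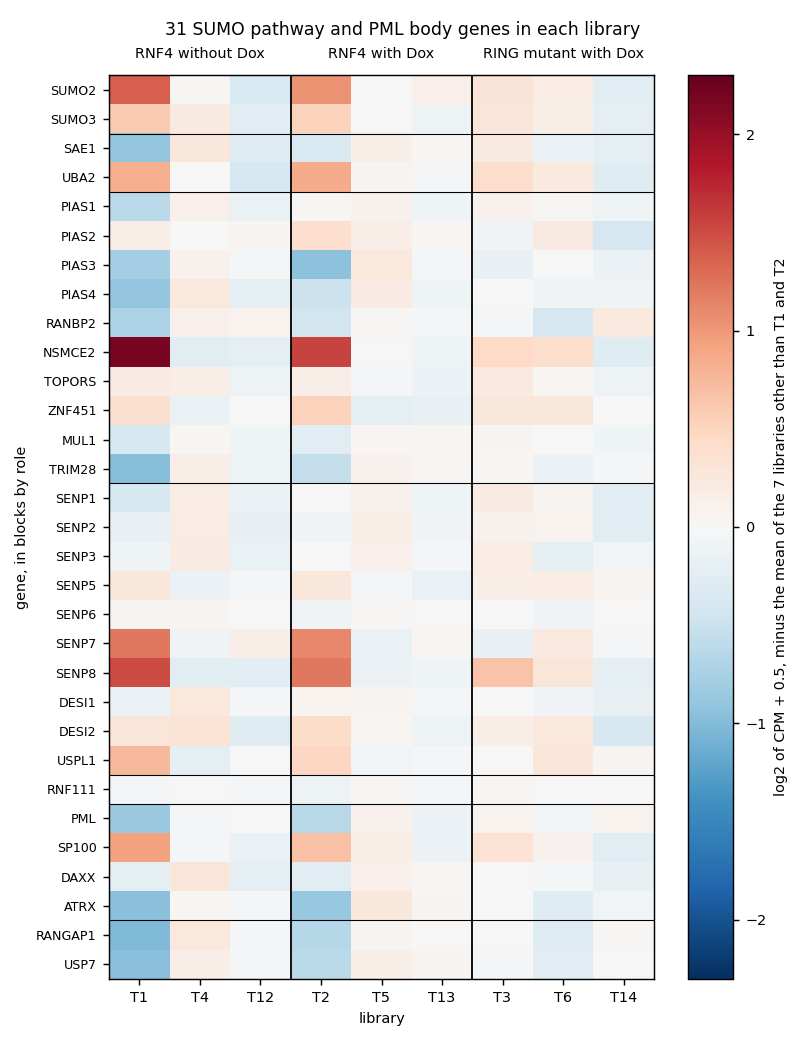
Level of each of the 31 genes (rows, in blocks by role) in the 9 libraries (columns, by group), as log2 of CPM + 0.5 minus the mean of the 7 libraries other than T1 and T2. Red is higher and blue lower; T1 and T2 carry the strong colours, led by NSMCE2, SENP8, SUMO2 and SENP7 on the high side, and the other 7 columns are pale in all 3 groups.

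T1 and T2 also differed from the rest in ribosomal protein share, as given above, and in which transcripts they favoured. Of the 18 members whose longest transcript had under 45% GC, 13 were higher in T1 than in the other 7 libraries, and of the 11 with 50% GC or more, 10 were lower. Spearman's rho between GC content and the deviation of T1 was -0.47 over the 31 members and -0.38 over 18163 tested genes with a transcript. Against transcript length it was -0.11 over the members and -0.40 over those genes. These are descriptions of 1 library, in which all points share the same depth and preparation. The lower ones under 45% were ATRX, RANBP2, PIAS1, SENP1 and RNF111, and the higher one at 50% or more was SUMO3, 1.52-fold higher at 50.4% GC. The part of GC content and of the ribosomal protein share in the members' values was not tested. With offsets for GC content and length in the fit, an alternative chosen after seeing the data, edgeR still called 0 of 31 members, and the smallest unadjusted p was 0.082.

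**Figure D4:**
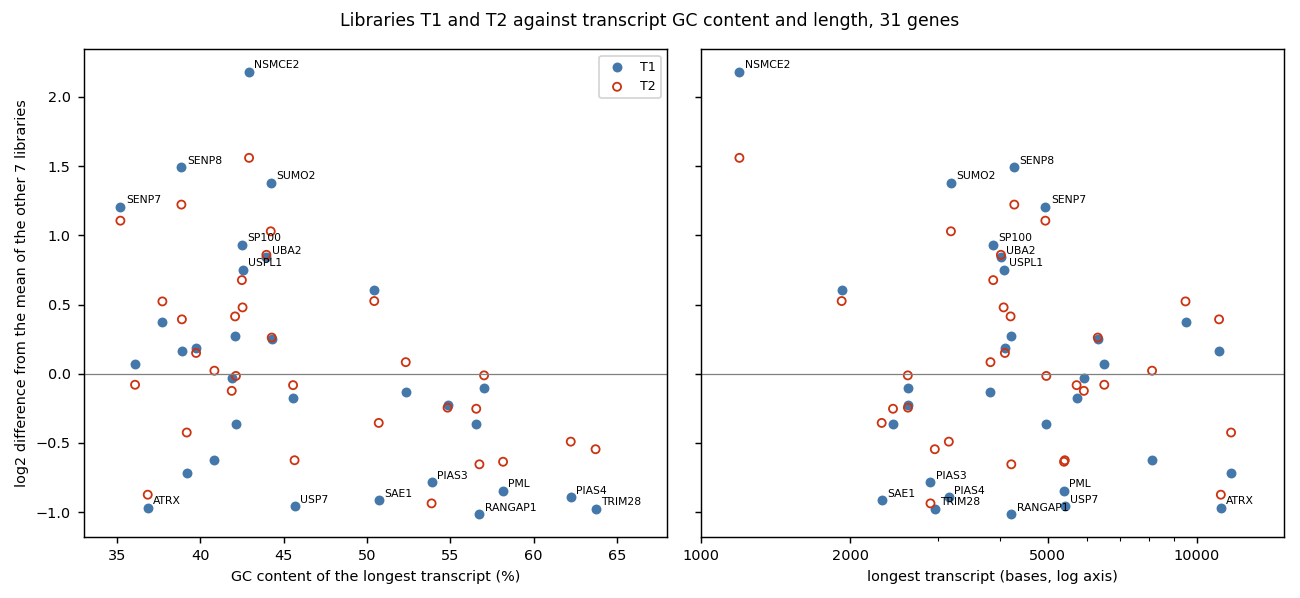
Log2 difference of T1 (filled) and T2 (open) from the mean of the other 7 libraries (y axis) against GC content in percent (left) and length in bases on a log axis (right) of the longest transcript, for the 31 genes. Genes above 55% GC lie below 0 in both libraries, and those under 45% are spread from NSMCE2 at 2.18 to ATRX at -0.97 in T1.

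In the other 7 libraries the 31 genes were steady. The median SD of their log2 levels over these libraries, groups ignored, was 0.16, against 0.25 for all genes tested and 0.19 for the 9903 genes at 10 CPM or more. For 23 of the 31 the highest of the 7 values was under 1.5 times the lowest, and in all 9 libraries this held for 10. RNF111 (SD 0.027) and SENP6 (SD 0.043) were at percentiles 0.0054 and 0.075 of all genes tested by this SD. The most variable of the 7 were SENP8, at 3.05 to 6.16 CPM, and NSMCE2, at 28.1 to 47.5 CPM. T6, the RING mutant library with induced RNF4, was the highest of the 7 for 4 members and the lowest for 7. T3, with RNF4 at its level without Dox, was the highest for 11 and the lowest for 2. The uninduced RNF4 libraries differed from each other as much, with T4 the highest for 12 and the lowest for 2, and T12 for 0 and 7. Among the rest, T14 was the highest for 1 and the lowest for 8, T5 for 3 and 1, and T13 for 0 and 4. These counts were not taken over all genes, and a part of RNF4 in them was not tested.

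Levels between genes were compared per length, as CPM per kilobase of merged exons averaged over the 9 libraries. TRIM28 was the highest at 123.2, at percentile 98.6 of the genes tested. UBA2 at 56.8, SAE1 at 49.0, SUMO2 at 40.4, SUMO3 at 38.5 and RANGAP1 at 36.7 followed, so the modifiers, the activating enzyme and RANGAP1 led the pathway after TRIM28. Over the 7 libraries other than T1 and T2 these genes still followed TRIM28 (135), but in another order: SAE1 at 53.1, UBA2 at 48.4, RANGAP1 at 40.7, SUMO3 at 34.9 and SUMO2 at 31.3. SENP8 at 1.05 and ATRX at 1.26 were the lowest over all 9 libraries, SENP8 117-fold below TRIM28 (177-fold without T1 and T2), and 24 of 31 members were above the median gene. SENP8 removes NEDD8, not SUMO, despite its name. At its lowest it had 55 counts, in T14, or 3.13 CPM with an exact 95% Poisson interval of 2.35 to 4.07 that covers counting error only.

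Within families the shares per merged exon length were as follows, and their order can depend on the length used. Merged exons span 11414 bases for SENP6 and 17527 for PIAS2, against 6501 and 11075 in their longest transcripts. SENP3 made 21.5% of the SENP family, SENP5 19.4%, SENP1 17.4%, SENP2 15.9%, SENP6 15.5%, SENP7 7.87% and SENP8 2.46%, as means of 9 libraries. The share of SENP7 was 13.7% and 12.4% in T1 and T2 and 5.13% to 7.56% in the others. PIAS4 made 38.8% of the PIAS family, PIAS3 22.6%, PIAS2 20.5% and PIAS1 18.0%, and PIAS2 took 30.2% and 28.7% there and 15.2% to 20.4% elsewhere. By group the share of PIAS4 was 37.6% ± 5.58 (SD, n = 3) without Dox, 38.2% ± 3.15 with RNF4 plus Dox and 40.6% ± 2.40 with the RING mutant, a spread in which the groups overlapped.

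Ratios between partner genes cancel the scaling of a library. The ratio of SUMO3 to SUMO2 per exon length was 0.651 in T1 and 0.786 in T2, and 0.951 to 1.27 in the other 7 libraries. UBA2 to SAE1 was 3.07 and 2.11, against 0.762 to 1.17. Where such a ratio lies relative to 1 depends on the length used. Merged exons span 4815 bases for UBA2 and 3396 for SAE1, against 4023 and 2313 in their longest transcripts. Parity of the subunits is therefore not shown, whereas the fold difference of T1 and T2 from the other 7 libraries does not depend on length. ATRX to DAXX was 0.170 and 0.184 against 0.240 to 0.331, and SP100 to PML was 2.22 and 1.61 against 0.514 to 0.767. For each of these 4 ratios the ranges of T1 and T2 and of the other 7 libraries did not overlap, and the ranges of the 3 groups did. In exact two-sided permutation tests of the group means, 12 in all, p ran from 0.3 to 1 and every adjusted p was 1; with 3 libraries against 3 the smallest p such a test can give is 0.1.

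**Figure D5:**
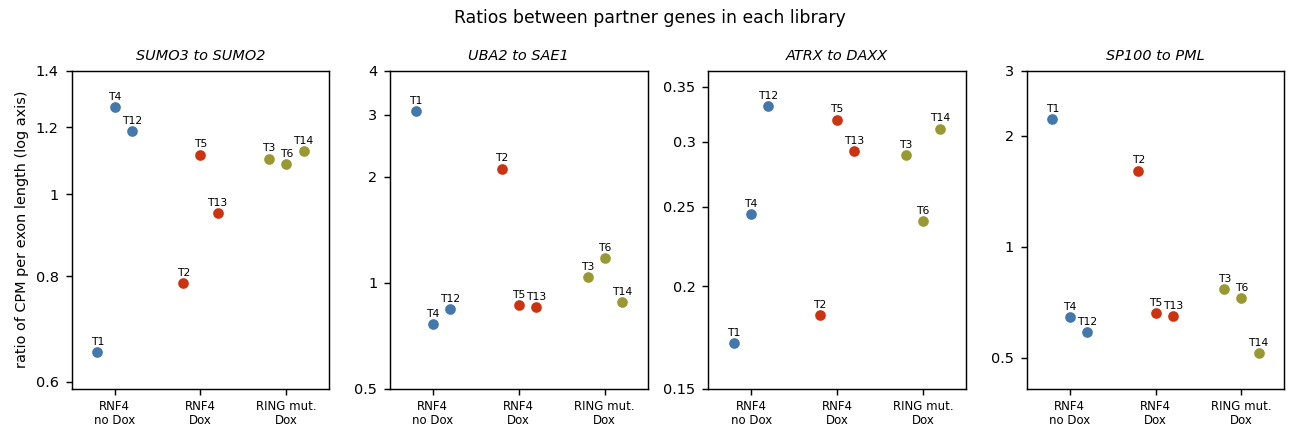
Ratio of CPM per exon length (y axis, log scale) for SUMO3 to SUMO2, UBA2 to SAE1, ATRX to DAXX and SP100 to PML in each library, by group. T1 and T2 lie apart in every panel, low for SUMO3 to SUMO2 and ATRX to DAXX and high for UBA2 to SAE1 and SP100 to PML, and the other 7 libraries lie together.

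The wider pathway was read from the same fits. Of 29 other genes listed, among them subunits of the SMC5/6 complex, relatives of SP100, the HIRA histone chaperone and readers of SUMO chains, 27 were tested and 0 were called by edgeR in any comparison, as in 0% of all genes. RNF4, at log2 changes of 3.28 ± 0.84, 0.90 ± 0.77 and 2.38 ± 0.81 (SE), was the only one whose groups did not overlap in any comparison, namely with and without Dox. Of the others, TDG, a DNA glycosylase regulated by SUMO, had -0.29 ± 0.38 and UFD1, a cofactor of the VCP segregase, -0.19 ± 0.29 with Dox against no Dox. SLX4, a nuclease scaffold that binds SUMO, had -0.42 ± 0.30, VCP -0.23 ± 0.37 and NSMCE1 0.29 ± 0.22 between RNF4 and RING mutant. ASF1A, a histone chaperone, had -0.50 ± 0.57, TDG -0.42 ± 0.38 and SLX4 0.27 ± 0.30 between RING mutant and no Dox. On the substrate side of SENP8, 7 of 7 genes of the NEDD8 pathway were tested and 0 called. NEDD8 itself was at 241 CPM in T1 and 130 CPM in T2 and at 55.0 to 81.8 CPM in the other 7, and its log2 change was -0.50 ± 0.56 with RNF4 and Dox against no Dox and -0.72 ± 0.56 with the RING mutant against no Dox.

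The tumours hold mouse cells beside the A375 cells, and in bulk RNA fewer cells of a type and less RNA per cell cannot be told apart. Only the human build GRCh38 is named for the processing, so mouse reads can count only where they match human sequence. The sums below therefore need not follow the content of mouse cells. Skeletal muscle genes (9 of 10 tested) summed to 14.5 to 46.0 CPM without Dox, 13.4 to 212 CPM with RNF4 plus Dox and 21.7 to 773 CPM with the RING mutant, the highest in T14. Fibroblast genes (6 of 6) summed to 885 to 2369 CPM, 1138 to 3556 CPM and 651 to 4043 CPM, leukocyte genes (7 of 8) to 99.5 to 143 CPM, 96.0 to 123 CPM and 106 to 178 CPM, endothelial genes (4 of 4) to 5.404 to 28.5 CPM, 4.78 to 30.1 CPM and 8.13 to 22.2 CPM, and keratinocyte genes (5 of 5) to 54.4 to 252 CPM, 58.2 to 493 CPM and 96.9 to 155 CPM. Their part in the members' values was not tested. T14, with the highest muscle and fibroblast sums, was the highest of the 7 libraries for 1 member and the lowest for 8. Libraries with low sums had similar counts. T12, with a muscle sum of 14.5 CPM, was the highest for 0 and the lowest for 7, and T6, with the lowest fibroblast sum of 651 CPM, was the highest for 4 and the lowest for 7.

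For some members the reads could belong to another gene. Of 50-base windows, 58.2% were shared for SENP3, nearly all with the readthrough gene SENP3-EIF4A1, 39.9% for PIAS1, mostly with CALML4 on the opposite strand, and 26.6% for RANBP2, mostly with its copy RGPD3. DAXX shared 15.4%, PIAS3 13.4% and SP100 13.3%, and 19 members shared under 2%, 11 of them 0. The library kit keeps strand, but whether the counting used it is not given in the sources used here. Levels of SENP3, PIAS1 and RANBP2, and their places in their families, are therefore uncertain.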

How the data were processed

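Raw counts per gene are as the authors deposited them: per the submitters' processing notes, TopHat2 2.0.13, HTSeq 0.6.0, DESeq2 1.10.1 and GRCh38 were named. The annotation release is not given in the sources used here. The authors' deposited log2 fold changes and adjusted p-values were used only where named, and their 9 normalised columns in each of 3 tables were not used. Column names give the group but not the single sample.

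Gene symbols and coordinates came from GENCODE 29 by identifier without version. In R 4.3.3 with edgeR 4.0.16, filterByExpr kept 18618 genes, scaled by TMM. The quasi-likelihood fit took all 9 libraries with a mean for each group, and each contrast was tested two-sided with Benjamini-Hochberg adjustment over all genes tested at 0.05. The method was tested on simulated data. Each SE comes from the F statistic of the test. Log2 levels used CPM + 0.5, and fold values of T1 and T2 are relative to the geometric mean of CPM + 0.5 in the other 7 libraries.

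The members, role lists, marker lists and ratios were chosen with earlier results of these data known. Every member is named, those with the 3 smallest p in each direction of a contrast, the modifiers, the E1 and the PML body genes by library, and other pathway genes by the 2 smallest p in each direction, of which 1 is not reported here. Alternatives were RLE factors, other filters, DESeq2 1.42.0, only the 6 libraries compared, each library left out, T1 and T2 left out, a block for runs of column numbers and, added later, GC and length offsets. Counting error follows from the counts, 55 or more per member and library, whereas the SEs also hold the spread between libraries.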

Additional observations from a re-analysis of the deposited data

How the results depend on the processing

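No alternative called a member: 67 counts of members called were 0, and of 1581 alternative values of single members 0 had an adjusted p under 0.05 (smallest 0.956), while 230 had the opposite sign of the reported one and 1351 kept it. Over all genes, edgeR without a filter on low counts called 3 in the first comparison (RNF4 with Dox against no Dox), 38 in the second (RNF4 against RING mutant), 109 in the third (RING mutant against no Dox) and 87 (any difference among the groups), against 0 each as reported. DESeq2's Wald test called 3 in the first and 6 in the third comparison, its likelihood ratio test 2 for any difference. Leaving out 1 library gave 0 to 1 in the first comparison and for any difference, the 1 without T6, and leaving out T1 and T2 gave 1 in the third. The members' median log2 change in the first comparison ran from -0.028 to 0.12 over fits without 1 library, the highest without T4, in the second from -0.048 to 0.064 and in the third from -0.017 to 0.059, so all 3 medians changed sign. Scaling by RLE moved the all-gene median by at most 0.011.

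Of the 12 log2 differences of the partner ratios, which this design cannot call, 9 changed sign without T1 and T2 and 3 kept it. With 1 library left out, SUMO3 to SUMO2 ran from -0.38 to 0.098, -0.35 to -0.10 and -0.15 to 0.33, and UBA2 to SAE1 from -0.55 to 0.53, -0.26 to 0.40 and -0.65 to 0.35 in the 3 comparisons. ATRX to DAXX ran from -0.14 to 0.35, -0.26 to 0.13 and -0.034 to 0.45, and SP100 to PML from -0.53 to 0.52, -0.0089 to 0.65 and -0.86 to 0.10. Without T1 and T2 the values were -0.25, -0.10 and -0.15 for SUMO3 to SUMO2, 0.099, -0.26 and 0.35 for UBA2 to SAE1, 0.10, 0.13 and -0.034 for ATRX to DAXX, and 0.091, -0.0089 and 0.10 for SP100 to PML.

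Column numbers fall into 3 runs of consecutive numbers, each with 1 library per group. Deviations from the group means correlated between 0.00044 and 0.675 within runs, all positive, and between -0.657 and 0.3 across runs. The highest value was that of T1 with T2, which share a run. Within runs not all values were over 0.1, and the labels do not say what the runs are, so a pairing is not established. With a replicate block for these runs edgeR called 0 genes and 0 members in every comparison, and the smallest unadjusted p of a member was 0.12. Depth limits SENP8 most.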

Other observations

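HIRA, the histone H3.3 chaperone that also visits PML bodies, was 1 of 2 genes on the wider pathway list that stayed under the filter on low counts, the other being SUMO4. It had 1 to 14 counts in the 9 libraries, whereas its complex partners UBN1 and CABIN1 stood at 53.4 to 122 CPM and 33.9 to 85.8 CPM. In GENCODE 29, C22orf39 on the same strand shares 66.5% of the exon bases of HIRA, and C22orf39 had 209 to 470 counts. How reads in the shared exons were counted is not given in the sources used here, so the low HIRA count cannot be read as low expression. SENP3 is in the same position, with 41.2% of its exon bases shared with SENP3-EIF4A1 on the same strand.

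Of the HIRA partners, UBN1 was at 53.4 CPM in T1 and 56.8 CPM in T2, and at 90.4 to 122 CPM in the other 7 libraries. CABIN1 was at 33.9 CPM and 44.7 CPM against 55.7 to 85.8 CPM, and ASF1A was at 89.0 CPM and 66.5 CPM against 22.6 to 38.5 CPM. In both T1 and T2, UBN1 and CABIN1 were thus below and ASF1A above the other 7 libraries. Of all genes tested, 23% were above and 19.2% below in both, so this does not set the partner genes apart.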
